A study of Mus musculus with 2 samples.

Results

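The glucocorticoid receptor gene, the mineralocorticoid receptor gene and 7 genes that glucocorticoids induce were followed in the pituitary of mice with a disrupted Brdt gene, which encodes a bromodomain protein known from male germ cells. These 9 genes (Nr3c1, Nr3c2, Fkbp5, Tsc22d3, Sgk1, Zbtb16, Hsd11b1, Mt2 and Klf9) were taken by name from the 31784 gene rows of the study, and all 9 were found. The study set pituitary RNA of Brdt-/- mice against RNA of wild-type mice on 2 two-colour arrays. Both genotypes were on a C57BL/6 background and 8 weeks old. The knockout animals carried the tm1a (EUCOMM) Wtsi allele, in which a lacZ trapping cassette and a floxed neo cassette sit in an intron of Brdt. Each genotype gave 2 pools of 3 mice, and the label "male" is given for the wild-type channel, with no sex given for the knockout channel. Array 1 carried knockout RNA in Cy5 and array 2 carried it in Cy3. No treatment with a steroid is named in the labels.

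Glucocorticoids, chiefly corticosterone in mice, enter cells and bind a receptor held by chaperones in the cytoplasm. The bound receptor moves to the nucleus, where it binds DNA at paired half-sites and raises the transcription of genes such as Fkbp5 and Tsc22d3. In the pituitary the same receptor restrains Pomc, the gene of the corticotrophin precursor, and so closes the feedback loop of the stress axis. The mineralocorticoid receptor also binds corticosterone, with high affinity.

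Each value is a log2 ratio in which the knockout stands over the wild type, and array 1 precedes array 2. This direction is only likely. It takes both columns as Cy5 over Cy3, so array 2 was turned. The basis is the E1A spike-in RNAs of Agilent, whose 10 rows each kept 1 sign in both deposited columns, from -2.14 to 3.20 on array 1 and from -1.71 to 3.78 on array 2. This holds only if each mixture of these RNAs was tied to a dye, a point on which the sources used here are silent. With Cy3 over Cy5 in both columns every sign below would invert. If array 2 should not be turned, each of its values below takes the other sign, so genes with 1 sign on both arrays have opposite signs and the reverse; counts or medians in that orientation are given for the members and most lists. The files hold ratios and no intensities, so the level of each gene, and the presence of pituitary marker transcripts, could not be checked. In pooled tissue, fewer cells of a type and less RNA per cell cannot be told apart. Brdt itself was at -0.30 and -0.43, with a mean of 0.07 when array 2 was not turned, and whether its probe lies before or after the cassette is unknown here.

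No member passed limma's test. It called 0 of the 9 genes at the adjusted threshold, where it called 0% of all gene rows. At an unadjusted p under 0.05 it called 0 of the 9, against 2.21% of all rows. The ordinary one-sample statistic, at the adjusted threshold, called 0 members and 2 of all 31784 gene rows. The 2 receptor genes, Tsc22d3 and Hsd11b1 had 1 sign on both arrays. The other 5 members had opposite signs on the arrays. The same sign on both arrays was seen in 41.1% of all gene rows. None of the 9 was past 1.5-fold in 1 direction on both arrays, which 0.812% of all rows were. The median of the 9 means was 0.0019, beside 0.0025 over all rows. The mean of 5 members lay further from 0 than 0.109, the median size over all gene rows.

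**Figure D1:**
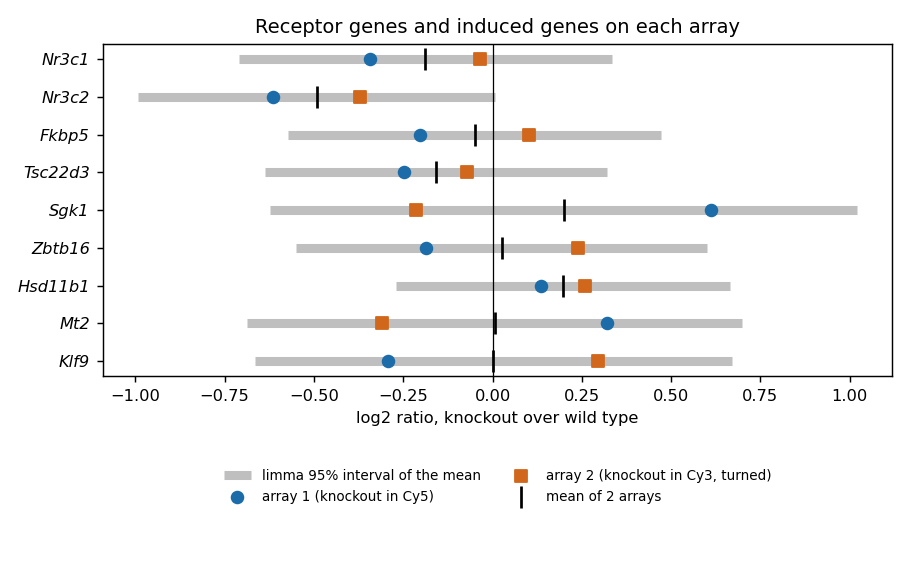
Log2 ratios of knockout over wild type (x axis) for the 9 genes (y axis). Circles are array 1, squares array 2 after turning, ticks the mean of the 2 arrays and grey bars limma's 95% interval of the mean; every interval includes 0, and the circle and square lie on the same side of 0 for Nr3c1, Nr3c2, Tsc22d3 and Hsd11b1.

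The receptor genes lay below 0 on both arrays. Nr3c1, the glucocorticoid receptor, was at -0.34 and -0.04, which is 1.27-fold and 1.02-fold lower in the knockout pools. Nr3c2, the mineralocorticoid receptor, was at -0.61 and -0.37, or 1.53-fold and 1.29-fold lower. The mineralocorticoid receptor thus had the lower value of the 2 receptors on each array, and array 1 gave the lower value for both genes. The mean of Nr3c1 was -0.19 ± 0.22 (SD, n = 2), with a limma 95% interval from -0.71 to 0.33 and an adjusted p of 0.999995. The mean of Nr3c2 was -0.49 ± 0.17 (SD, n = 2), with an interval from -0.99 to 0.0059 (limma's unadjusted p = 0.0516, adjusted p = 0.999995). That mean was further from 0 than those of 93.5% of all gene rows and was the largest in size among the 9 members. As a ratio of knockout to wild type, its interval runs from 0.503 to 1.00. With array 2 not turned, Nr3c2 was at -0.61 and 0.37, its mean was -0.12 ± 0.70, and the mean of Nr3c1 was -0.15 ± 0.27 (SD, n = 2 each).

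Many gene rows had values close to those of Nr3c2. Among the nearest by Euclidean distance over the 2 arrays were Inpp5f, at -0.60 and -0.39, and Lrrc9, at -0.60 and -0.40. In all, 81 rows lay within 0.1 of it. For Fkbp5 that count was 2282 and for Sgk1 it was 128, so 2 arrays place many other rows beside the members.

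Fkbp5 encodes an immunophilin co-chaperone that lowers the hormone affinity of the receptor, and its induction closes a short feedback loop inside the cell. It was at -0.20 and 0.10, a mean of -0.05 ± 0.22 (SD, n = 2), with a 95% interval from -0.57 to 0.47. The arrays thus differed in sign for this gene. Hsd11b1 encodes the enzyme that regenerates active glucocorticoid from its inert 11-keto form. It was at 0.13 and 0.26, a mean of 0.20 ± 0.09 (SD, n = 2; interval from -0.27 to 0.66), and was the sole member above 0 on both arrays. Of all gene rows, 21.6% were above 0 on both arrays and 19.5% below 0 on both.

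Tsc22d3 encodes GILZ, a leucine zipper protein that mediates anti-inflammatory effects of glucocorticoids. It was at -0.25 and -0.07, a mean of -0.16 ± 0.13 (SD, n = 2), with an interval from -0.64 to 0.32. It joins the receptors as the third gene below 0 on both arrays. Zbtb16 encodes PLZF, a zinc finger repressor that is strongly induced by glucocorticoids in many tissues. It was at -0.19 and 0.24, and its mean was 0.03 ± 0.30 (SD, n = 2). Klf9 encodes a Kruppel-like transcription factor that glucocorticoids and thyroid hormone induce. It was at -0.29 and 0.30, values of nearly equal size and opposite sign, so that its mean was 0.0019 ± 0.42 (SD, n = 2). Its 95% interval, as a ratio of knockout to wild type, runs from 0.631 to 1.59, so differences within that range were not resolved by 2 arrays.

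Sgk1 encodes a serine/threonine kinase that both corticosteroid receptors induce and that raises sodium channel activity. Its log2 ratio was 0.61 on array 1 but -0.21 on array 2, and the mean was 0.20 ± 0.58 (SD, n = 2). It had the largest spread of the 9 genes, and its interval of -0.62 to 1.02 is the widest. Sgk1 and Nr3c2 were the 2 members past 1.5-fold on array 1, in opposite directions, where 13.8% of all gene rows were past it in either direction. On array 2 no member was past it, against 9.19% of all rows.

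The promoter of Sgk1 shows what the receptor's site looks like and is printed for that reason. RefSeq (GRCm38.p6) gives 6 start sites for this gene, and the window of 250 bases before one of them, chr10:21993640-21993889 on the plus strand, holds the full paired site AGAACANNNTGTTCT. The site begins 189 bases before the start and reads the same on both strands apart from the spacer. Capitals mark that site, with its spacer, and a separate half-site (AGAACA or, on the other strand, TGTTCT) at 242 bases before the start.
Sgk1: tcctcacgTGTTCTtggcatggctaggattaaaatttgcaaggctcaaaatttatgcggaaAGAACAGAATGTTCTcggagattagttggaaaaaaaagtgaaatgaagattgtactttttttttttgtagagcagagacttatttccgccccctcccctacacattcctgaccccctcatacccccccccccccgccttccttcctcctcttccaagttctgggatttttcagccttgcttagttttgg
The full site was found in 3 of 32851 such RefSeq windows (0.00913%), and at least 1 half-site in 16.1%. A full site includes 2 half-sites, and both strands were searched. Of the other members, 1 of 3 windows of Tsc22d3 held a half-site, and the windows of Nr3c2, Fkbp5, Hsd11b1, Mt2 and Klf9 held none. Windows of Nr3c1 and Zbtb16 were not used here. A match describes these letters in this window and does not show binding.

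Mt2 encodes a small metal-binding protein, metallothionein, that both metals and glucocorticoids induce. It was at 0.32 and -0.31, and its mean was 0.006 ± 0.45 (SD, n = 2). Mt1, its neighbour on the chromosome and close paralogue, was at 0.29 and -0.48, so Mt1 minus Mt2 was -0.03 on array 1 and -0.17 on array 2. Both metallothionein genes thus lay on the same side of 0 on each array and changed side between the arrays. Above 0 on array 1 and below 0 on array 2 were 23.3% of all gene rows. Whether the probe of one gene also captures the other's RNA was not tested. The brain metallothionein gene Mt3, the other coding neighbour of Mt2, was at -0.12 and -0.12, and Mt4 was at 0.18 and 0.14. Of the 5 further genes of metallothioneins and zinc handling, 1 was higher and 1 lower on both arrays, beside 21.6% and 19.5% of all gene rows. With array 2 as deposited the counts were 2 and 1, beside 23.3% and 35.4%. Limma's test was passed by 0 of the 5.

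The promoter windows of Mt2 and Mt1 are shown because these neighbours had like values on each array. In capitals are cores of the metal response element, TGCGCNC or TGCACNC on either strand, which metal-activated MTF1 binds. The windows are the 250 bases before the RefSeq starts, at chr8:94172368-94172617 for Mt2 and chr8:94178839-94179088 for Mt1 (GRCm38.p6, plus strand).
Mt2: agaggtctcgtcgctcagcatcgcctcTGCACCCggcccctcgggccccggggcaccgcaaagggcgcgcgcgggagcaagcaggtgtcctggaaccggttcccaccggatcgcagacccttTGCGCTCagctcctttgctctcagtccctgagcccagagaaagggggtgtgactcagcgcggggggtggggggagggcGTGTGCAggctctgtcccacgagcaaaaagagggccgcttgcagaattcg
Mt1: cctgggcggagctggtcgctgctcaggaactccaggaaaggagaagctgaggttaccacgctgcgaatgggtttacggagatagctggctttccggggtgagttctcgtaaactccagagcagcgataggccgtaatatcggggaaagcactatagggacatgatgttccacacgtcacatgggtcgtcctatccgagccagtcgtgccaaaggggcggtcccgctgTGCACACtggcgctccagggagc
In these windows Mt2 had 3 cores, at 223, 128 and 50 bases before the start, and Mt1 had 1, at 23 bases before it. Cores outside the printed 250 bases were not counted, so these numbers depend on the RefSeq start and do not compare the whole promoters. At least 1 core was present in 21.4% of the 32851 windows and at least 3 in 1.26%.

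**Figure D2:**
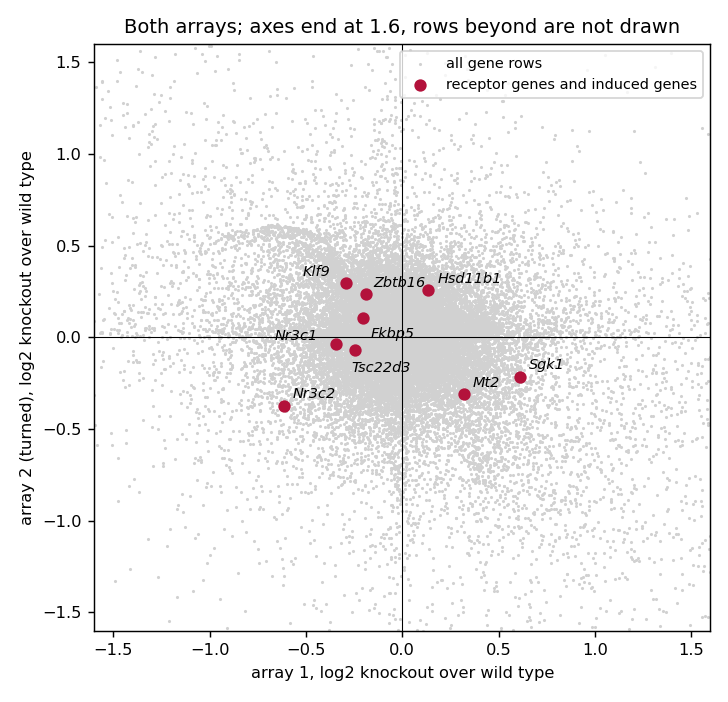
Array 1 (x axis) against array 2 after turning (y axis), both as log2 knockout over wild type, with every gene row in grey and the 9 genes in red; axes end at 1.6. Nr3c2, Nr3c1 and Tsc22d3 lie in the lower left field, Hsd11b1 in the upper right, Klf9, Zbtb16 and Fkbp5 in the upper left, and Sgk1 and Mt2 in the lower right.

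The orientation of array 2 decides which of the induced genes look alike on the arrays. As deposited, without turning, Mt2 was at 0.32 and 0.31 and Klf9 at -0.29 and -0.30. Zbtb16 was at -0.19 and -0.24, Fkbp5 at -0.20 and -0.10, and Sgk1 at 0.61 and 0.21. In that orientation 5 of the 9 genes had 1 sign on both arrays, 2 higher and 3 lower. Of all gene rows 58.7% had 1 sign, 23.3% higher and 35.4% lower. The means were 0.31 ± 0.0084 for Mt2, -0.29 ± 0.0027 for Klf9 and 0.41 ± 0.28 for Sgk1 (SD, n = 2 each). Mt2 and Klf9 then had unadjusted limma p-values of 0.0345 and 0.0392, in an orientation where 10.2% of all rows were under 0.05. After adjustment, limma gave 0.476 for Mt2 and 0.481 for Klf9, and 0 members and 0% of all rows passed. Past 1.5-fold in 1 direction were 0 members and 3.17% of all rows. With the orientation unsettled, a constant dye effect and a genotype effect cannot be told apart for any of the 9 genes.

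**Figure D3:**
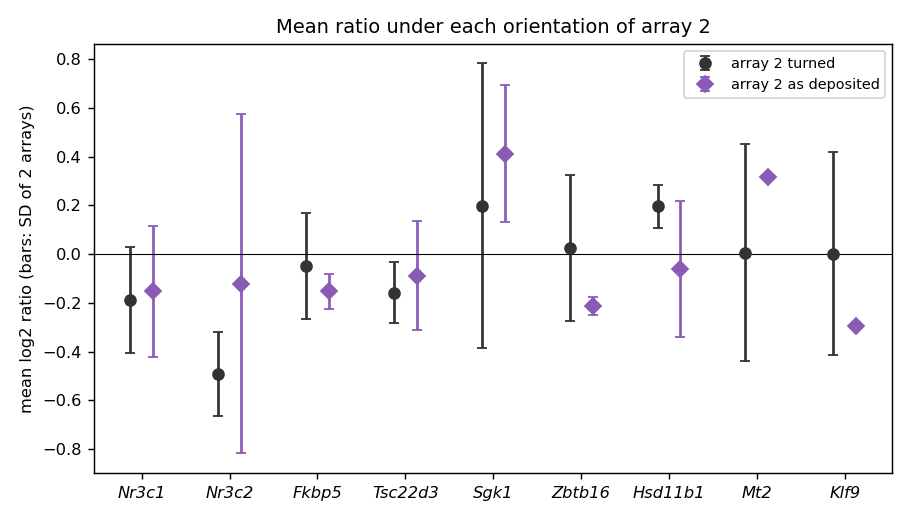
Mean log2 ratio over 2 arrays (y axis) for each gene (x axis), as circles with array 2 turned and as diamonds with array 2 as deposited; bars are the SD of 2 arrays. The bars of Klf9, Mt2, Zbtb16, Fkbp5 and Sgk1 are shorter as deposited, and those of Nr3c1, Nr3c2, Tsc22d3 and Hsd11b1 are shorter when turned.

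Genes listed as chaperones and coregulators had small ratios. Of 16 chaperone genes, 1 was higher and 5 were lower on both arrays, beside 21.6% and 19.5% of all gene rows. The chaperone medians were -0.13 and -0.07, beside -0.03 and 0.03 over all gene rows. Dnajb1, an Hsp40 co-chaperone, was at -0.64 and -0.20, and Ptges3, the p23 co-chaperone that stabilises the hormone-binding form, was at -0.14 and -0.30. Dnaja1 was at -0.33 and -0.06. Hsp90aa1, the inducible cytosolic Hsp90, was at -0.11 and -0.08. Of 20 genes listed as coregulators, 3 were higher and 2 lower on both arrays. The other 15 had opposite signs, which 58.9% of all gene rows had. The deacetylase gene Hdac2 was at 0.10 and 0.33, and the corepressor gene Ncor1 at 0.05 and 0.19. Nfkbia, which is in that list but encodes a protein that restrains NF-kB, was at -0.03 and -0.25. The coactivator gene Ppargc1a was at -0.15 and -0.12. None of the 36 genes of these 2 lists passed limma's test or was past 1.5-fold in 1 direction on both arrays.

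Among 17 genes of steroid access and metabolism, 4 were higher and 7 lower on both arrays, or 23.5% and 41.2%. Over all gene rows those shares were 21.6% and 19.5%. The list medians were -0.09 and 0.02. With array 2 as deposited, 1 of the 17 was higher and 5 were lower on both arrays, beside 23.3% and 35.4% of all gene rows. The median of means was then 0.0094. Serpina6, which encodes the corticosteroid-binding globulin made mainly by liver, was at -0.24 and -1.39, so array 2 carried most of it. Cyp11b1, an enzyme of corticosterone synthesis in the adrenal, was at -0.27 and -0.48. Hsd11b2, which inactivates corticosterone and so works against Hsd11b1, was at 0.70 and 0.02. Hsd17b11 was at 0.45 and 0.04. With intensities not used here, dim rows among these cannot be set apart.

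In a wider list of 40 genes that glucocorticoids induce, 17 were lower and 6 higher on both arrays, or 42.5% and 15.0%. Over all gene rows the shares were 19.5% and 21.6%. The list medians were -0.02 on array 1 and -0.17 on array 2. Limma's adjusted threshold was passed by 0 of the 40 genes. Past 1.5-fold on both arrays were 2 lower genes, against 0.453% of all rows, and 0 higher genes, against 0.359%. These were Pck1, a gluconeogenic enzyme, at -0.94 and -0.84, and Per1, a clock gene, at -0.92 and -0.66. Cebpb, a transcription factor of acute responses, was at -0.51 and -0.84. Il1r2, the decoy receptor of interleukin-1, was at 1.29 and 0.32. The median of the 40 means was -0.09. With array 2 as deposited the balance turned, with 13 of the 40 higher and 4 lower on both arrays. Over all gene rows the shares were then 23.3% and 35.4%. The median of the 40 was 0.08, and 0 genes were past 1.5-fold in 1 direction, against 3.17% of all rows. Pck1 then had a mean of -0.05 and Per1 of -0.13, each with opposite signs on the arrays.

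Stimuli other than glucocorticoids also induce some genes of that list quickly. The 10 early-response genes among the 40 (Per1, Dusp1, Cebpb, Cebpd, Errfi1, Gadd45b, Rgs2, Nfil3, Irs2 and Cdkn1a) were set apart after their values were seen. Of these, 8 were lower on both arrays, and the medians were -0.41 and -0.57. The other 30 had medians of 0.11 and -0.11, with 9 lower and 6 higher on both arrays. Beside them, 14 of 19 immediate early genes were lower on both arrays and 1 higher, at medians of -0.48 and -0.86. Nr4a2 was at -2.72 and -2.30, Nr4a1 at -1.83 and -2.22, Fosl2 at -2.55 and -1.52, and Egr1 at -0.80 and -2.21. Errfi1, a feedback inhibitor of the EGF receptor, was at -0.39 and -0.91, and Dusp1, a phosphatase of MAP kinases, at 0.04 and -1.35. The shared sign and the low array 2 values need array 2 to be turned, whereas the array 1 values do not depend on that turn. As deposited, 3 of the 19 were higher and 1 lower on both arrays, beside 23.3% and 35.4% of all gene rows. The median of means was then 0.17 where it had been -0.83, and Nr4a2 had a mean of -0.21. The part of the immediate early response in the values of the glucocorticoid-induced genes was not tested.

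**Figure D4:**
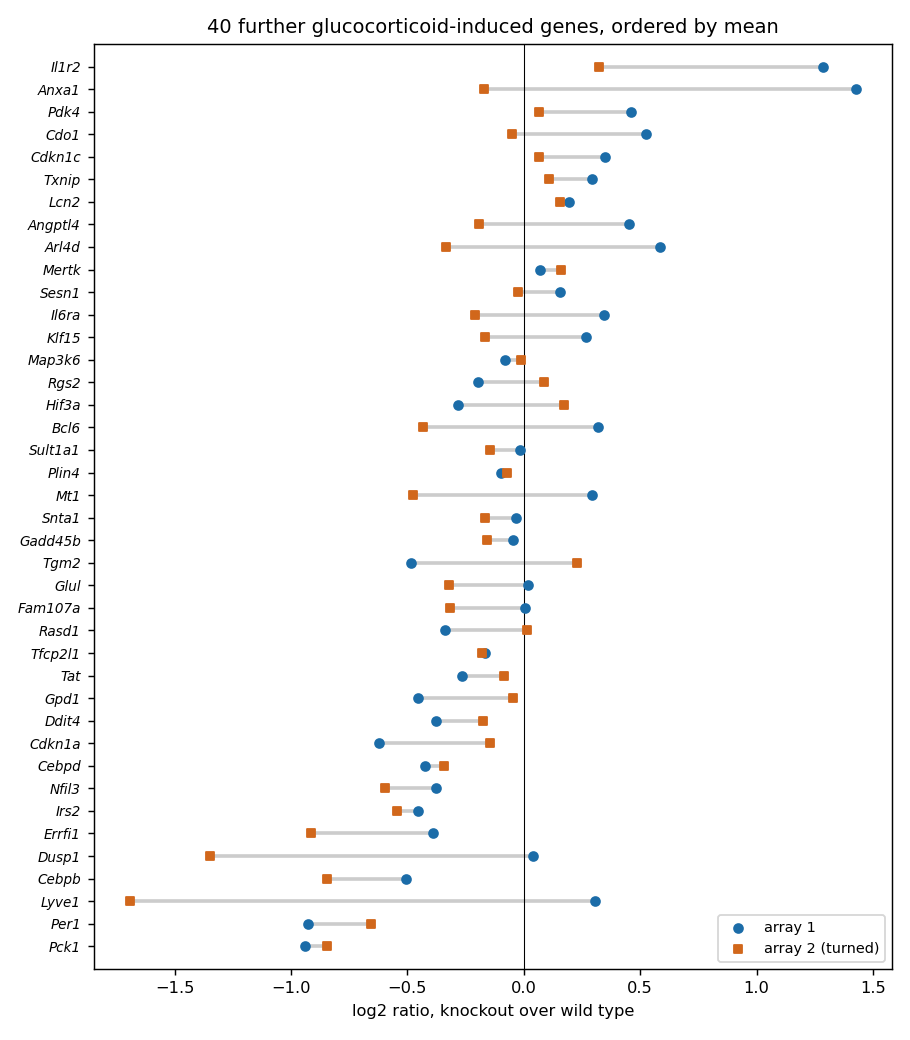
Log2 ratios of knockout over wild type (x axis) for 40 further glucocorticoid-induced genes (y axis, ordered by the mean of 2 arrays); circles are array 1 and squares array 2 after turning. Pck1, Per1 and Lyve1 have the lowest means, while Lyve1 and Dusp1 rest on array 2 and Anxa1 on array 1.

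Genes that glucocorticoids repress numbered 18, of which 8 were higher and 1 was lower on both arrays, beside 21.6% and 19.5% of all gene rows. Their medians were 0.34 and 0.04. The single lower gene was Pomc, at -0.63 and -0.96. Of 9 corticotroph and melanotroph markers, Pomc included, 2 were higher and 2 lower on both arrays, and 5 had opposite signs. The higher genes were Crhr1, the receptor of corticotrophin-releasing hormone, at 0.41 and 0.31, and the corticotroph factor Tbx19, at 0.39 and 0.30. Pcsk2, a protease that cleaves the Pomc product, was at -0.46 and -0.10 and so lower with Pomc. Avpr1b, the vasopressin receptor of corticotrophs, was at 0.58 and -0.32. The osteocalcin genes Bglap2, at 1.56 and 1.14, and Bglap, at 1.21 and 0.22, and the protease gene Mmp9, at 2.32 and 0.07, had the highest means among genes with 1 sign. None of the 18 passed limma's adjusted threshold. Past 1.5-fold on both arrays were 1 higher gene (Bglap2), against 0.359% of all rows, and 1 lower gene (Pomc), against 0.453%. As deposited, 7 of the 18 were higher and 2 lower on both arrays, beside 23.3% and 35.4% of all gene rows. Those 7 and 2 were the 9 genes that had opposite signs after turning. Pomc then had a mean of 0.17 and Bglap2 of 0.21, each with opposite signs. In that orientation 1 other gene, Cxcl10, was past 1.5-fold, against 3.17% of all rows.

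Markers of other cells also had ratios away from 0. Mmp9 and the induced gene Lcn2 (0.19 and 0.16) are also neutrophil markers, and Anxa1 (1.43 and -0.17) also marks folliculostellate cells. Of 13 neutrophil markers 10 were higher and 2 lower on both arrays, beside 21.6% and 19.5% of all gene rows. The neutrophil medians were 2.77 and 0.45, with values on array 1 from -0.27 to 5.54. S100a8 was at 5.54 and 0.45, S100a9 at 4.36 and 0.73, Ltf at 4.23 and 1.32 and Ngp at 3.30 and 0.65. The 2 lower markers were Csf3r, at -0.27 and -0.14, and Elane, at -0.09 and -0.15. Mpo had opposite signs, at 3.50 and -0.45. All 7 red blood cell markers were above 0 on array 2 (median 1.15), and 4 of them on array 1 (median 0.12), with Hba-a2 at 0.73 and 1.15. The median of the 7 means was 0.66, or -0.47 with array 2 as deposited, and that of the neutrophil markers was 1.53 or 1.15. The medians were 0.46 and -0.11 for 8 folliculostellate markers, 0.36 and 0.10 for 6 pituicyte markers and 0.25 and 0.03 for 9 macrophage markers. They were -0.30 and -0.16 for 10 lymphoid, 0.02 and -0.23 for 7 skeletal muscle and 0.20 and -0.06 for 9 corticotroph and melanotroph markers. None of these markers passed limma's adjusted threshold, and the part of such cells in the members' values was not tested.

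Genes that respond to the mineralocorticoid receptor numbered 12. Of these, 4 were higher and 2 lower on both arrays, beside 21.6% and 19.5% of all gene rows. The list medians were -0.02 and 0.11. With array 2 as deposited, 2 of the 12 were higher and 4 lower on both arrays, beside 23.3% and 35.4% of all gene rows. Ndrg2, an early aldosterone-induced gene, was at 0.48 and 0.29, and Scnn1g, a subunit of the epithelial sodium channel, at 0.19 and 0.10. Usp2, a deubiquitinase that acts on that channel, was at -0.04 and -0.41, and Atp1b1, a sodium pump subunit, at -0.12 and -0.09. Among 7 related nuclear receptors, 1 was higher and 2 lower on both arrays, beside 21.6% and 19.5% of all gene rows. The oestrogen receptor genes Esr1 and Esr2 were at -0.06 and -0.55 and at -0.07 and -0.29, and Esrrb was at 0.38 and 0.23. The progesterone receptor gene Pgr, at 0.15 and -0.27, had opposite signs on the arrays.

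Paralogues of the induced genes were measured too. Of 16 other Kruppel-like factors, 13 had opposite signs on the arrays, which 58.9% of all gene rows had. As deposited these 13 had 1 sign, 9 higher and 4 lower, beside 23.3% and 35.4% of all gene rows. Klf4 was at -0.13 and -0.60 and Klf14 at -0.29 and -0.19, while Klf5 was at 0.01 and 0.01. Of 20 paralogues of Fkbp5, Sgk1, Tsc22d3 and Zbtb16, 6 were higher and 2 lower on both arrays. Over all gene rows the shares were 21.6% and 19.5%. The paralogue medians were 0.04 and 0.12. The immunophilin genes Fkbp1b, at 0.38 and 0.31, Fkbp3, at 0.26 and 0.25, and Fkbp7, at 0.14 and 0.37, lay above 0, and Fkbp11, at -0.35 and -0.06, lay below. Sgk3 was at 0.33 and -0.24 and Sgk2 at 0.39 and -0.56, so both kinase paralogues had the signs of Sgk1 on each array. Of all gene rows, 23.3% were likewise above 0 on array 1 and below 0 on array 2. None of these genes passed limma's adjusted threshold.

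**Figure D5:**
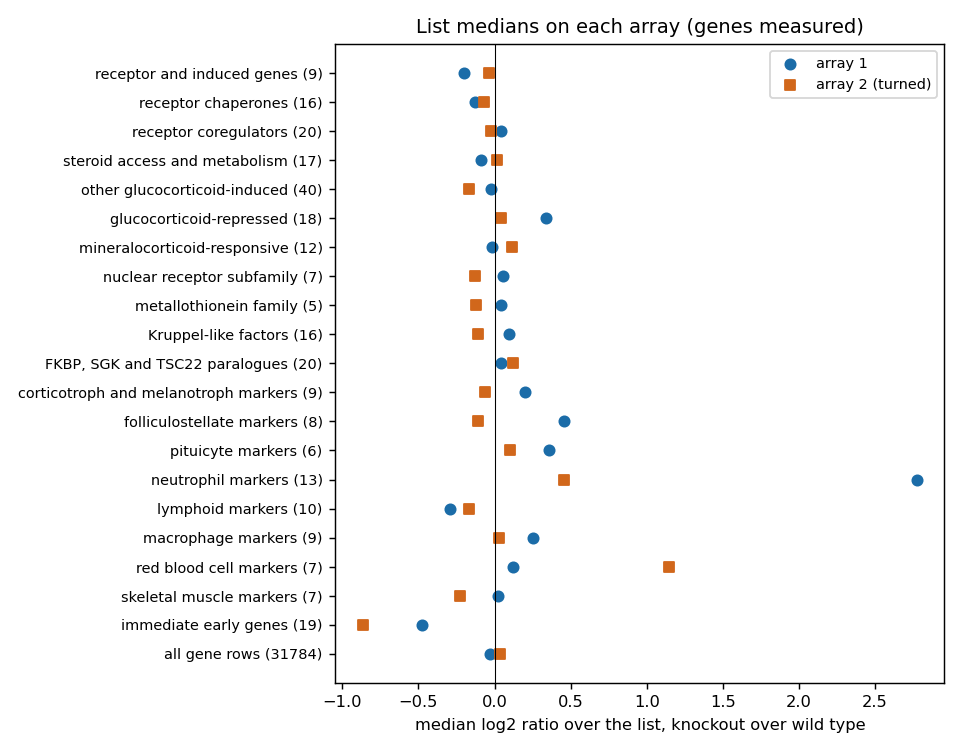
Median log2 ratio of knockout over wild type (x axis) of each gene list (y axis, with the number of genes measured); circles are array 1 and squares array 2 after turning. The 9 receptor and induced genes sit at -0.20 and -0.04 and all gene rows at -0.03 and 0.03, while neutrophil markers stand out on array 1, red blood cell markers on array 2 and immediate early genes below 0 on both.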

How the data were processed

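Pituitary RNA of 2 wild-type and 2 Brdt-/- pools was hybridised to 2 two-colour Agilent arrays, with labelling by a low-input kit per the labels' protocols. The deposited values are the authors' signed linear fold changes (a ratio of the channels, 1 row per gene name). The sources used here do not name the background correction, normalization, probe summarising or direction of the ratio. No value lay strictly between -1 and 1, so the sign was kept and log2 of the size taken. Of 31840 rows, 56 control features were left out. Names were matched to RefSeq (GRCm38.p6): 20794 gene rows carried a current symbol and 2749 an older one.

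Ratios of 31784 gene rows, with array 2 turned, were tested for a mean of 0 in R 4.3.3 by limma 3.58.1 (lmFit, then eBayes, with 1 residual degree of freedom, Benjamini-Hochberg adjustment over all rows, threshold 0.05). The procedure was tested on simulated data. A sign-flip permutation of 2 arrays cannot go below a two-sided p of 0.5. Promoter windows came from the RefSeq table of the same assembly and were searched on both strands. Alternatives were array 2 not turned, centring, scaling, other folds, coding genes alone and single arrays. The members, lists and naming rule (up to 4 genes per list with 1 sign on both arrays and the largest mean, and the 3 rows nearest to the leading member) were chosen with earlier results of these data known. Genes named outside that rule were chosen after their values were seen. A row that this rule names is not reported here.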

Additional observations from a re-analysis of the deposited data

Results flagged for a closer look

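One signal came from control features that the comparison does not use. The 10 E1A spike-in rows had a mean size of 1.58 in log2 over both deposited columns, against 0.0675 for the negative control row. The 12 rows of the ERCC controls were at 0.150. The E1A rows served to orient array 2.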

How the results depend on the processing

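With array 2 not turned, the mean became -0.21 for Zbtb16, -0.062 for Hsd11b1 and -0.29 for Klf9, each a change of sign, and 2 members were higher on both arrays where 1 had been. The median over the members moved to -0.12, and the medians of the lists moved to -0.026 for chaperones, 0.056 for coregulators, 0.078 for the 40 induced genes, 0.11 for related nuclear receptors and -0.075 for FKBP, SGK and TSC22 paralogues. These follow from the sign of array 2 itself. Mt2 and Klf9, with means near 0, changed sign to -0.035 when the arrays were scaled and to -0.0005 when they were centred. Single arrays gave member medians of -0.20 and -0.036, and list medians from -0.13 to -0.067 for chaperones, from -0.091 to 0.019 for steroid metabolism and from 0.041 to 0.12 for the paralogues. At 1.2-fold, 1 member (Nr3c2) was past the threshold on both arrays. Over all gene rows 258 were past 1.5-fold, with 1696 at 1.2-fold, 36 at 2-fold, 146 among coding genes and 1008 with array 2 not turned. Limma's 0 called rows became 703 at an unadjusted p under 0.05, and 2 with the ordinary statistic at the adjusted threshold. Centring and scaling changed the sign of no other member's mean, and 0 members passed limma's adjusted threshold in any of the 3 alternative fits. Each array is already a pair of pools, so the main fit was the paired one and no further pairing was possible. The number of arrays limits the precision, and signal over background is unknown.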
